A study of Drosophila melanogaster with 57 samples.

Results

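Flies that lacked both *Cbs* and *Cth*, the strain CBS/CSE(1), were compared with flies of their parent strain CBS(5), which lacked *Cbs* alone, as whole adult males. The comparison takes the 3 male libraries of each strain, 6 of the 57 libraries of the series, by the genotype, sex and tissue given for each library. It asks what the loss of *Cth* added in males in which *Cbs* was already missing. Poly(A) RNA was taken from whole bodies aged 5 days, kept at 23 °C with the sexes apart and about 20 flies per vial, and reads were counted per gene. The whole series holds stock 58492, strains labelled with a deletion of *Cbs*, *Cth* or CG12279, and 2 strains with deletions of both *Cbs* and *Cth*.

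CBS/CSE(1) males carried deletions of *Cbs* (written CBS in the labels) and *Cth* (written CSE). CBS(5) males carried the deletion of *Cbs* alone. In both strains a deleted gene was replaced by a reporter that expresses mCherry from the actin 5C promoter, and both descend from embryos of stock 58492, which carries the Cas9 insertion M{Act5C-Cas9.P.RFP-}ZH-2A together with the alleles y1, w1118 and DNAlig4169. CBS/CSE(1) was made from CBS(5) and a single *Cth* deletion strain through 5 crosses that used balancers of the X and of the second chromosome. Each strain is therefore 1 line, and what else the crosses brought in cannot be told apart from the loss of *Cth*. The single *Cth* deletion strain is labelled CSE(8) in the data, while the extraction notes write CSE1.

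The transsulphuration pathway passes the sulphur of methionine to cysteine. Cystathionine beta-synthase, made from *Cbs*, joins homocysteine with serine into cystathionine, and cystathionine gamma-lyase, made from *Cth*, splits cystathionine to release cysteine, the amino acid that limits the synthesis of glutathione. Both enzymes also release hydrogen sulphide in side reactions, as does 3-mercaptopyruvate sulphurtransferase, the product of CG12279.

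In the pair itself the deleted genes followed the labels. *Cth* (FBgn0000566, chromosome 2R, 18627918 to 18629395 in dm6) had 3.76, 3.199 and 3.02 CPM in the CBS/CSE(1) libraries, against 108, 112 and 110 CPM in the CBS(5) libraries. CPM are counts scaled to the size of each library, with TMM factors. The groups lay far apart, and the level fell by 5.04 on the log2 scale (SE 0.18, quasi-likelihood adjusted p = 1.81e-12). Stock 58492 males had 56.9, 63.0 and 70.0 CPM of *Cth*, under the CBS(5) libraries. The male libraries labelled CSE(8), the single *Cth* deletion, had 15.6, 20.1 and 27.4 CPM, under the stock but above CBS/CSE(1), so their label of a deletion was not borne out in full and every comparison with them below carries that limit. *Cbs* (FBgn0031148, chromosome X, 21045138 to 21049096) is deleted in both strains and had 0.348, 0.261 and 0.402 CPM in CBS/CSE(1), against 0.135, 0.648 and 0.374 CPM in CBS(5). Those values overlapped, far under the 53.8 to 60.2 CPM of stock 58492 males (log2 -0.17, SE 0.45, quasi-likelihood adjusted p = 0.796).

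The CBS(5) male libraries held RNA of females in unequal amounts. The share was estimated as the median, over 78 genes high in females and nearly absent from males of the MST strain, of the level in a male library relative to females of its own genotype. It was 1.14%, 0.889% and 1.56% in the CBS/CSE(1) libraries, against 11.8%, 36.5% and 1.72% in the CBS(5) libraries. The first and second CBS(5) libraries thus stood apart from the other 4, and the third did not. The yolk protein genes *Yp1*, *Yp2* and *Yp3*, which the female fat body and the ovary express, summed to 118, 85.5 and 181 CPM in CBS/CSE(1), against 2021, 6771 and 213 CPM in CBS(5). CBS(8), the parent of the second double deletion CBS/CSE(2), had shares of 21.9%, 21.2% and 1.37%, and CBS/CSE(2) of 1.35 to 1.68%, so that pair differed in the same way. How female RNA came into these libraries was not tested. Counts on genes per library were 13671143 to 14614955 in CBS/CSE(1) and 14339811 to 15151361 in CBS(5). Nothing states that the replicates came from separate cultures, so p-values measure only the spread between these samples, which may be technical. In whole flies, fewer cells of a type and less RNA per cell cannot be told apart.

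**Figure D1:**
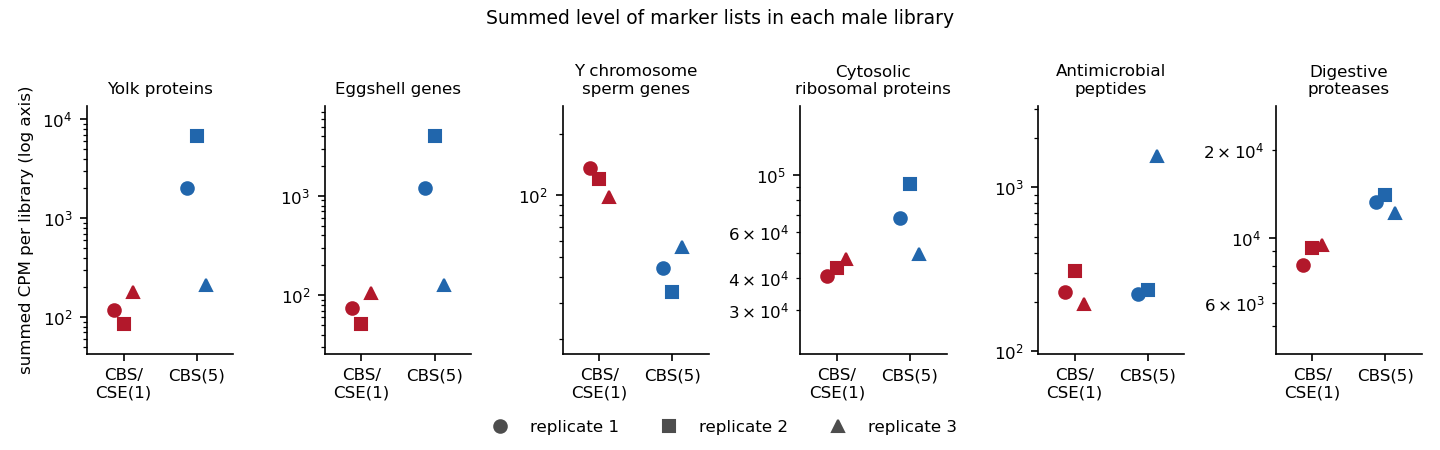
Summed level of the genes of 6 lists in each male library, CPM on log axes, with the 3 CBS/CSE(1) libraries on the left of each panel and the 3 CBS(5) libraries on the right. Yolk and eggshell genes are high in CBS(5) replicates 1 and 2 only, antimicrobial peptides in CBS(5) replicate 3 only, whereas Y chromosome sperm genes are higher in all 3 CBS/CSE(1) libraries and digestive proteases higher in all 3 CBS(5) libraries.

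Genes were therefore sorted by their ratio in MST females against MST males, strains that are not part of the comparison: female-biased (at least 2-fold higher in females), male-biased (at least 2-fold higher in males) and similar. The comparison was run with all 3 CBS(5) libraries, with the estimated female RNA subtracted, and with the third CBS(5) library alone, which was chosen after seeing the data. In that last fit the spread of the lone library was assumed to be that of the other groups. Genes called in the same direction in all 3 analyses are described as held.

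With all libraries, 4709 of 13036 genes differed (36.1%), 2130 higher (16.3%) and 2579 lower (19.8%). Female-biased genes were almost all on the lower side, with 35 higher and 1358 lower of 3304. Of the male-biased genes 1662 were higher and 515 lower of 5442, but after subtraction of female RNA this turned to 647 higher and 894 lower, and with the third CBS(5) library alone it was 338 and 330. With all libraries, among the similar genes 433 were higher and 706 lower of 4290. Outside the female-biased class 3316 of 9732 genes differed (34.1%), 2095 higher and 1221 lower, and after subtraction the balance turned to 918 higher and 1715 lower. That total was 537 with only the libraries compared, 1479 with the female share as a covariate, 945 with the third CBS(5) library alone, 1614 without CBS/CSE(1) replicate 1 and 2113 without CBS(5) replicate 2. After subtraction 3101 genes were past the threshold (23.9%), 7.97% higher and 16% lower, and with the third CBS(5) library alone 1007 of 13385 (7.52%), of which 428 were higher and 579 lower. The total depended on single libraries: it was 2039 without CBS/CSE(1) replicate 1 and 2427 without CBS(5) replicate 2.

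**Figure D2:**
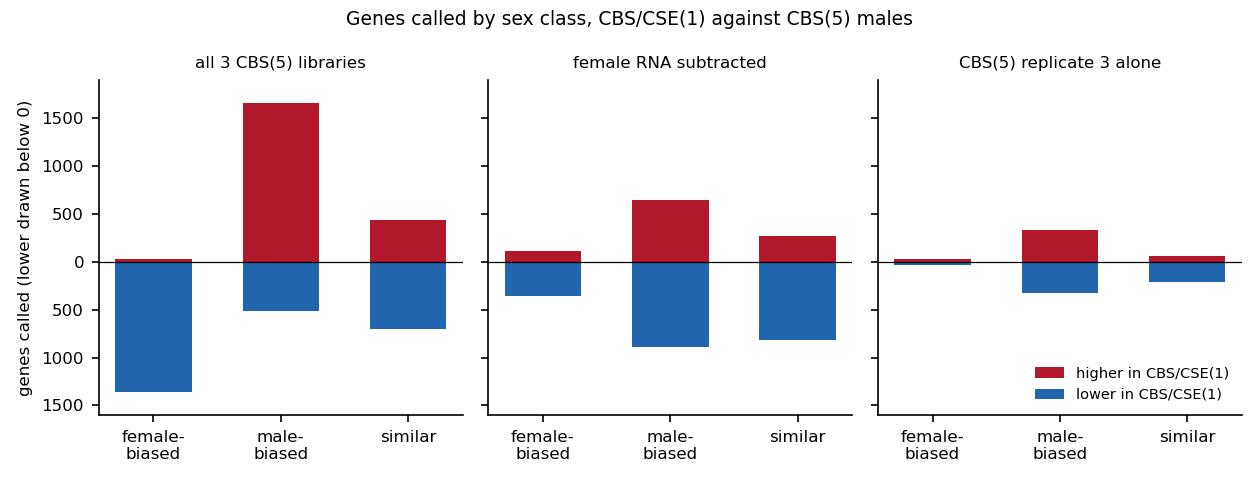
Number of genes called higher (above 0) or lower (below 0) in CBS/CSE(1) against CBS(5) males, by sex class, in 3 analyses: all 3 CBS(5) libraries, female RNA subtracted, and CBS(5) replicate 3 alone. The lower bar of the female-biased class holds 1358 genes with all libraries and 37 with replicate 3 alone.

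Most of the listed genes of the ovary and eggshell were lower with all libraries. All 20 eggshell genes (chorion and vitelline membrane) tested were lower with all libraries, with a median log2 of -4.73 against -0.03 over all genes tested, and none passed with the third library alone, where 4.33% of all genes were lower. After subtraction of female RNA 18 of the 20 were still lower, where 16% of all genes were lower, and their median log2 was -8.02. The 3 yolk protein genes were lower both before and after subtraction, with median log2 values of -4.76 and -15.9. Subtraction thus left these female genes further apart between the groups. The eggshell gene *Cp16* had 2.23, 2.15 and 3.02 CPM in CBS/CSE(1), against 56.2, 176 and 5.91 CPM in CBS(5). Of 18 genes of the female germline and oocyte, 14 were lower and 2 higher with all libraries. Over all genes 19.8% were lower and 16.3% higher. The list summed to 1424, 1161 and 1035 CPM in CBS/CSE(1), against 1484, 3383 and 832 CPM in CBS(5), with overlap. Of these genes *osk*, which places the germ plasm in the egg, had 6.69, 4.63 and 9.11 CPM in CBS/CSE(1), against 120, 401 and 12.3 CPM in CBS(5). Genes of this kind define the female share, so their order among the CBS(5) libraries is no separate evidence of it.

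The named genes of the ribosome and proteasome were also highest in the second CBS(5) library. Of 80 cytosolic ribosomal protein genes, 76 were lower and 1 higher with all libraries (median log2 -0.79), and 0 passed with the third library alone, although 74 still lay below 0 there (median -0.34). *RpS7* had 672, 723 and 772 CPM in CBS/CSE(1), against 1406, 2105 and 970 CPM in CBS(5), and *RpL41* 722, 778 and 844 CPM, against 1620, 4115 and 955 CPM. The proteasome, which degrades marked proteins, gave 29 of 31 genes lower with all libraries and 0 with the third alone, with *Prosalpha7* at 132, 132 and 137 CPM in CBS/CSE(1) and 198, 283 and 153 CPM in CBS(5). Mitochondrial ribosomal proteins (38 of 70 lower) and DNA replication factors (11 of 14 lower) likewise gave 0 with the third library alone. In females of the same 2 strains 0 of the cytosolic ribosomal, mitochondrial ribosomal and proteasome genes passed in either direction. Of the 14 DNA replication factors 2 were lower and 0 higher in those females, where 1.46% of all genes were lower.

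Sperm genes ran the other way. Of 11 Y chromosome genes needed for sperm, 9 were higher and 0 lower with all libraries (median log2 1.23, against 0.38 over the male-biased genes). *kl-5*, which encodes a dynein heavy chain of the sperm tail, had 31.8, 28.8 and 21.4 CPM in CBS/CSE(1), against 5.73, 3.38 and 11.6 CPM in CBS(5). The groups did not overlap, and the log2 difference was 1.99 (SE 0.32, quasi-likelihood adjusted p = 0.000488). It was 1.24 with the third CBS(5) library alone (quasi-likelihood adjusted p = 0.0279). *kl-3*, another such dynein, had 26.0, 23.0 and 21.2 CPM in CBS/CSE(1), against 6.41, 2.74 and 12.6 CPM in CBS(5), and its log2 difference of 1.70 became 0.90 with the third library alone (quasi-likelihood adjusted p = 0.0782). *kl-5* and *Ppr-Y* were the 2 of these 11 genes that held. Stock 58492 males had 20.5 to 22.0 CPM of *kl-5*, with a female share of 4.40 to 9.40%, so that level lay nearer to CBS/CSE(1).

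Other male germline genes that passed were higher as well. Of 11 regulators of meiotic arrest in the testis, 10 of them male-biased, 4 were higher and 0 lower, where 30.5% of all male-biased genes were higher. *topi*, a subunit of the testis complex that switches on spermatocyte genes, had 28.8, 20.6 and 21.6 CPM in CBS/CSE(1), against 12.2, 7.56 and 9.49 CPM in CBS(5), and held (log2 1.27, SE 0.24, quasi-likelihood adjusted p = 0.00144). Of 35 late spermatid genes, 16 were higher and 0 lower, 6 were without CBS/CSE(1) replicate 1, 3 with the third CBS(5) library alone, and 1 held. *bol*, a meiotic translation regulator, had 399, 289 and 231 CPM in CBS/CSE(1), against 163, 76.6 and 182 CPM in CBS(5) (log2 1.12, SE 0.30, quasi-likelihood adjusted p = 0.0102), and its level with the third library alone did not pass (log2 0.75, quasi-likelihood adjusted p = 0.188). Of 74 nuclear genes of the respiratory chain 8 were higher, all of them male-biased, and 7 lower, and the lower count was 22 without CBS(5) replicate 3 and 0 without CBS(5) replicate 2 or either of CBS/CSE(1) replicates 1 and 2. Over all genes 16.3% were higher and 19.8% lower.

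Genes of the male accessory gland and ejaculatory duct were lower where they passed. Of 30 tested, 0 were higher and 11 lower, 20 were lower after subtraction, 4 without CBS/CSE(1) replicate 1, 7 without its replicate 2 or 3, 6 without CBS(5) replicate 2, and 0 passed with the third CBS(5) library alone. Over all genes 19.8% were lower with all libraries and 16% after subtraction. Over the male-biased genes these shares were 9.46% and 16.4%. *Acp76A*, a serpin of the seminal fluid, had 78.5, 93.0 and 71.8 CPM in CBS/CSE(1), against 154, 128 and 134 CPM in CBS(5) (log2 -0.77, SE 0.20, quasi-likelihood adjusted p = 0.0082). *Dup99B*, a peptide of the ejaculatory duct, had 282, 274 and 272 CPM in CBS/CSE(1), against 476, 872 and 365 CPM in CBS(5). In CBS/CSE(2) against CBS(8), the second double deletion and its own parent, 14 of the same 30 genes were higher and 0 lower. Over all genes 4.83% were higher and 4.27% lower in that comparison. For *Acp76A* the difference between the comparisons was itself past the threshold (-1.79, quasi-likelihood test).

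Outside the female-biased class, 577 of 9732 genes held (5.93%), 194 higher and 383 lower. Over all classes the held genes were 1.55% higher and 3.1% lower. Of the 577, 404 were male-biased and 173 similar, 300 differed at least 2-fold, 150 in each direction, and the median absolute log2 difference was 1.02. The 3 CBS/CSE(1) and 3 CBS(5) libraries did not overlap in 193 of the 194 and in 332 of the 383, where over all genes 18.7% did not overlap upward and 20.8% downward. Held genes were chosen by tests on these same libraries, so their separation is largely set by that choice and is no separate evidence.

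Several of the largest differences were close to on or off. Among the rises was a cluster on 2L, *CG33640*, *CG33641* and *CG33642*, which lie 504 and 153 bases apart on the same strand between 13527841 and 13530736. *CG33640* had 5.64, 6.46 and 5.36 CPM in CBS/CSE(1), against 0 counts in all 3 CBS(5) libraries, at least 27.2-fold higher against a floor of 3 counts per library. *CG33641* had 5.71, 6.66 and 5.70 CPM in CBS/CSE(1), against 0, 0 and 0.299 CPM in CBS(5), and *CG33642* was at least 6.90-fold higher. All 3 were also higher in females of the pair and in CBS/CSE(2) against CBS(8) males, whereas none passed in libraries labelled CSE(8) against stock 58492 males. Reads of such near neighbours may be shared between copies.

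*CG42782*, on 2R, had 424, 321 and 352 CPM in CBS/CSE(1), against 18.9, 16.5 and 25.6 CPM in CBS(5) (log2 4.17, SE 0.38, quasi-likelihood adjusted p = 1.61e-06). No library of either group came near the other. The gene was as far apart in libraries labelled CSE(8) against stock 58492 males (log2 3.84, quasi-likelihood adjusted p = 5.55e-06) and did not pass in CBS/CSE(2) against CBS(8) (log2 0.92). Stock 58492 males had 27.6, 21.7 and 16.7 CPM. Strains that keep *Cth* lay above the stock as well, CBS(8) males with 245, 117 and 262 CPM and MST males with 68.0, 163 and 177 CPM. *lncRNA:CR44344* was at least 32.9-fold higher and was also higher in male libraries labelled CSE(8). *CG32373*, on 3L, had 25.2, 16.8 and 24.1 CPM in CBS/CSE(1), against 1.42, 1.66 and 1.495 CPM in CBS(5) (log2 3.85, SE 0.26, quasi-likelihood adjusted p = 4.17e-08), with a like difference in the second double deletion (3.63) while libraries labelled CSE(8) did not pass (0.07).

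The 12 largest rises and 12 largest falls named here are those among called genes outside the female-biased class with at least 5 CPM in the higher group, no overlap between the groups and the same call after subtraction. The other 7 of these rises included genes with known roles. *CNT2*, a nucleoside transporter, had 40.2, 41.9 and 41.3 CPM in CBS/CSE(1), against 6.47, 5.11 and 5.91 CPM in CBS(5) (log2 2.82, SE 0.34, quasi-likelihood adjusted p = 2.69e-05). *Acsx1L*, of the acyl-CoA synthetase family, had 9.48, 8.94 and 7.37 CPM in CBS/CSE(1), against 1.28, 1.15 and 0.0748 CPM in CBS(5). *CG43402* had 51.0, 63.3 and 68.2 CPM in CBS/CSE(1), against 7.62, 10.8 and 5.53 CPM in CBS(5), and 26.0 to 32.0 CPM in stock 58492. None of these 3 overlapped between the groups, which the rule required. *Cyp4p2* is described with the other P450 genes, and *lncRNA:CR44977* (log2 3.88), *lncRNA:CR42844* (3.49) and *phu* (2.55) complete the 12.

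Among the falls, *CG43403* on 2L had 0, 0.0653 and 0.067 CPM in CBS/CSE(1), against 13.3, 14.5 and 14.1 CPM in CBS(5), at least 69.2-fold lower. Stock 58492 males had 0 counts, on the side of CBS/CSE(1). *CG43055* had 0.209, 0.261 and 0.201 CPM in CBS/CSE(1), against 49.0, 72.9 and 37.7 CPM in CBS(5) (log2 -7.83, SE 0.67, quasi-likelihood adjusted p = 6.77e-07), and *CG31819* 0.418, 0.261 and 0 CPM, against 32.5, 30.9 and 25.1 CPM (log2 -6.98, SE 0.37, quasi-likelihood adjusted p = 7.52e-10). Here stock 58492 had 63.2 to 142 CPM of *CG43055* and 46.5 to 52.9 CPM of *CG31819*, on the side of CBS(5). All 3 were lower by a like amount in CBS/CSE(2) against CBS(8), with log2 differences of -7.34, -7.73 and -7.68.

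*Smyd4-3*, which encodes a protein of the SMYD family with SET and MYND domains, had 10.4, 8.62 and 9.18 CPM in CBS/CSE(1), against 197, 177 and 213 CPM in CBS(5) (log2 -4.38, SE 0.19, quasi-likelihood adjusted p = 4.2e-11). Stock 58492 had 15.5 to 20.4 CPM, near CBS/CSE(1). The gene was lower in females as well (log2 -3.40, quasi-likelihood adjusted p = 4.55e-05), while the difference between CBS/CSE(2) and CBS(8) males did not pass (0.25, quasi-likelihood adjusted p = 0.402). *lectin-37Da*, a C-type lectin, had 2.51, 2.09 and 2.68 CPM in CBS/CSE(1), against 17.6, 28.7 and 30.7 CPM in CBS(5). *NimC1*, a phagocytosis receptor of hemocytes, had 5.99, 4.96 and 5.03 CPM in CBS/CSE(1), against 43.0, 34.1 and 56.8 CPM in CBS(5) (log2 -3.06, SE 0.23, quasi-likelihood adjusted p = 1.3e-07). Both were also lower in females of the pair, in the second double deletion and in libraries labelled CSE(8). *NimC1* was chosen after its values were seen. *CG31219*, on average under 5 CPM in CBS(5), was at least 18.0-fold lower, and the falls named under the same rule also include *lncRNA:CR45128* (log2 -3.86), *CG5070* (-3.56), *CR33013* (-3.48) and *CG31664* (-3.43).

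**Figure D3:**
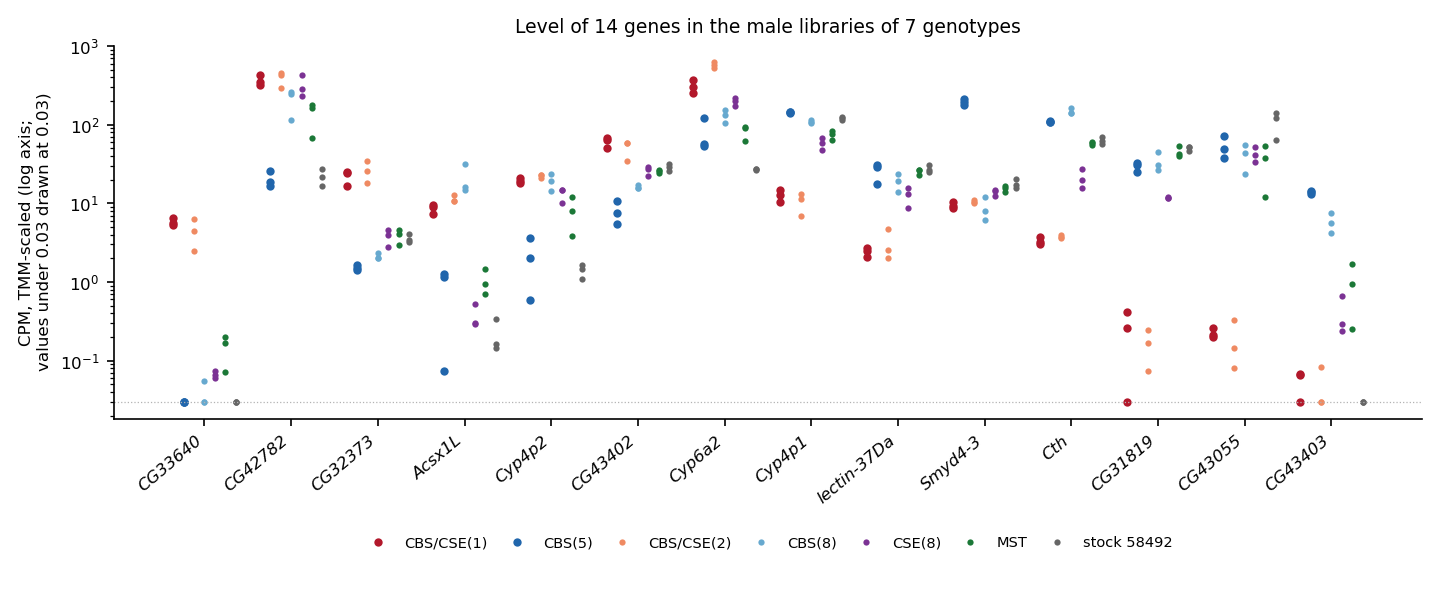
Level of 14 genes in the 21 male libraries of 7 genotypes, TMM-scaled CPM on a log axis, each point 1 library and values under 0.03 CPM drawn at 0.03. CBS/CSE(1) stands left of CBS(5) for each gene; in *Smyd4-3* CBS(5) alone is high, near 197 CPM, and in *CG43055* and *CG31819* both double deletions are low.

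Stock 58492, from which the strains derive, lay nearer to CBS(5) in 11 of the 12 rises named by that rule and to CBS/CSE(1) in 1, *CG43402*. Over all 194 genes that held higher the balance was the other way, with stock 58492 nearer to CBS/CSE(1) in 119 and to CBS(5) in 75. Of the 12 named falls it lay nearer to CBS/CSE(1) in 7 and to CBS(5) in 5, and of all 383 that held lower in 180 and 203. Nearness was taken as the smaller difference of log2(mean CPM + 0.5). Of the same rises, 7 of 9 tested were also higher in females of the pair, 7 of 12 in CBS/CSE(2) against CBS(8) and 6 of 12 in libraries labelled CSE(8) against stock 58492, where 2.26%, 4.83% and 1.7% of all genes were higher. Of the falls, 6 of 9, 5 of 12 and 4 of 12 were lower in those comparisons, with 2 higher in libraries labelled CSE(8), *CG43403* and *CG31664*, where 1.46%, 4.27% and 2% of all genes were lower. The females share no library with the male pair, and neither do the second double deletion and libraries labelled CSE(8) comparisons. Yet the females are of the same strains, and per the paper both double deletions took their *Cth* deletion from the same strain. A difference shared by the double deletions can thus not be told apart from what that strain brought in.

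The share of genes that held varied between chromosome arms. Outside the female-biased class 8.96% of genes on 2R and 7.99% on 2L held, against 5.23% on 3L, 4.37% on 3R and 3.03% on X. Few genes were tested on the other chromosomes. On Y 3 of 15 held (20%), all higher, and on chromosome 4 2.7% of 74 held. In females of the pair 6.15% of these genes were called on 2R and 6.88% on 2L, against 2.98%, 1.93% and 2.20% on 3L, 3R and X. Of 28 held genes with an absolute log2 difference of at least 3 and at least 5 CPM in the higher group, 22 lay on 2L or 2R and 6 on 3L, 3R or X. Such genes were 0.515% of those tested on 2L and 0.618% on 2R, against 0.16% on 3L, 0.0833% on 3R and 0.0759% on X. *Cth* lies on 2R, and the 12 such genes there were 0.24 to 11.96 Mb from it. They include *AttA*, *AttB*, *AttC* and *DptB*, whose levels were highest in the third CBS(5) library. *DptB* is the nearest, and its log2 difference was 0.14 without that library. Within 500 kb of *Cth* 15 of 97 genes held (15.5%).

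Second chromosome arms also stood higher in libraries labelled CSE(8) against stock 58492 males (7.16% on 2L and 6.79% on 2R, against 2.77% on 3L, 3R at 3.0% and X at 3.87%). In CBS/CSE(2) against CBS(8) males the arms of the third chromosome were nearer to those of the second (9.87% and 7.95% against 11.8% and 9.68%), and X was at 3.79%. These shares are descriptions of genes that can be linked on a chromosome. The part of the crossed-in chromosome in them was not tested.

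**Figure D4:**
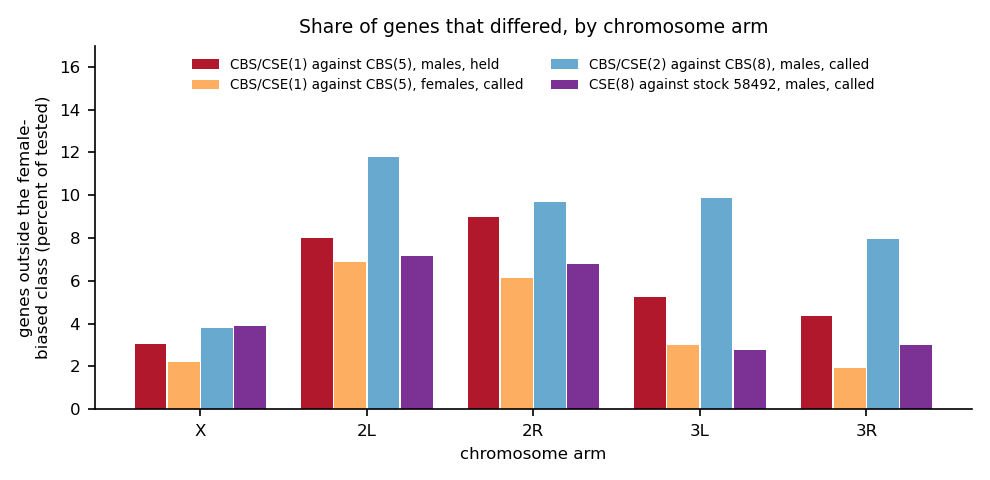
Percent of tested genes outside the female-biased class that held in CBS/CSE(1) against CBS(5) males or were called in 3 other comparisons, by chromosome arm. Chromosomes 4 and Y are not drawn. Arms 2L and 2R stand above 3L, 3R and X in CBS/CSE(1) against CBS(5), with 7.99% and 8.96% of genes held in males and 6.88% and 6.15% called in females.

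Apart from *Cth*, 1 gene of the pathway itself passed, and over all genes 16.3% were higher and 19.8% lower. Of 7 genes of transsulphuration and sulphide metabolism tested, 0 were higher and 2 lower, *Cth* and *CG30022*, and with the third CBS(5) library alone *Cth* was the 1 lower. *CG30022*, the fly counterpart of the sulphide-clearing persulphide dioxygenase, had 36.9, 38.9 and 39.3 CPM in CBS/CSE(1), against 47.6, 49.7 and 51.7 CPM in CBS(5). The groups did not overlap (log2 -0.37, SE 0.10, quasi-likelihood adjusted p = 0.00916), and the fall of 0.43 with the third library alone did not pass (quasi-likelihood adjusted p = 0.0612). CG12279, the third gene of sulphide production, had 11.8, 9.99 and 10.9 CPM in CBS/CSE(1), against 13.2, 17.6 and 10.3 CPM in CBS(5), with overlap (log2 -0.33, SE 0.22, quasi-likelihood adjusted p = 0.244).

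Upstream of transsulphuration, 8 of 13 genes of the methionine cycle and of methyl transfer were lower and 0 higher (median log2 -0.44), 4 were without CBS/CSE(1) replicate 2, 5 without its replicate 1 or CBS(5) replicate 2, and 2 held. *CG10621*, a predicted homocysteine methyltransferase, which turns homocysteine back to methionine, had 39.8, 26.3 and 30.1 CPM in CBS/CSE(1), against 56.4, 110 and 66.2 CPM in CBS(5) (log2 -1.27, SE 0.23, quasi-likelihood adjusted p = 0.0012). *Gnmt*, which uses up S-adenosylmethionine, had 117, 44.5 and 84.5 CPM in CBS/CSE(1), against 96.9, 222 and 224 CPM in CBS(5), so that the lowest CBS(5) library lay among the CBS/CSE(1) values (log2 -1.14, SE 0.30, quasi-likelihood adjusted p = 0.0101). *Ahcy*, which splits S-adenosylhomocysteine, had 68.4, 76.2 and 76.7 CPM in CBS/CSE(1), against 123, 188 and 105 CPM in CBS(5), and did not pass with the third library alone (log2 -0.50, quasi-likelihood adjusted p = 0.175). *Sam-S*, the synthase of S-adenosylmethionine, had 262, 249 and 258 CPM, against 302, 375 and 363 CPM. Over all genes 19.8% were lower and 3.1% held lower.

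Downstream, 3 of 24 genes of glutathione synthesis and thiol repair were higher and 8 lower, and 0 held, where 16.3% of all genes were higher and 19.8% lower. Without CBS/CSE(1) replicate 1 there were 0 higher and 4 lower, and without CBS(5) replicate 2 there were 0 higher. Of the glutathione transferases, which couple glutathione to foreign and oxidised compounds, 15 of 35 were lower and 1 higher, 6 were lower with the third CBS(5) library alone, and 5 held. All 5 were neighbours in the epsilon cluster on 2R, *GstE5* to *GstE9*, between 18404605 and 18409835, and of 14 epsilon genes tested 8 were lower. These 5 genes lie within 500 kb of *Cth*, where 15 of 97 genes outside the female-biased class held (15.5%). That share counts in those of the 5 that are outside this class, so it is no separate measure of their surroundings. The part of their position near *Cth* in their fall was not tested. *GstE5* had 3.21, 2.48 and 1.07 CPM in CBS/CSE(1), against 11.7, 12.5 and 9.64 CPM in CBS(5) (log2 -2.32, SE 0.41, quasi-likelihood adjusted p = 0.00102). *GstE7* had 63.1, 71.6 and 80.0 CPM in CBS/CSE(1), against 115.3, 127 and 124 CPM in CBS(5) (log2 -0.77, SE 0.11, quasi-likelihood adjusted p = 0.000128).

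The other 3 were moderate and regular. *GstE6*, *GstE8* and *GstE9* fell by 0.68, 0.79 and 0.61 on the log2 scale, each with no overlap between the groups. *GstS1*, an abundant sigma class enzyme, was the 1 gene of the list that was higher, with 472, 423 and 473 CPM in CBS/CSE(1), against 356, 209 and 363 CPM in CBS(5) (log2 0.56), and did not pass with the third library alone (quasi-likelihood adjusted p = 0.133). In CBS/CSE(2) against CBS(8) 4 of the 35 genes were higher and 1 lower, *GstE5* (log2 -2.68). Among the cluster the differences from that comparison were past the threshold for *GstE6* (-0.61), *GstE7* (-1.16) and *GstE9* (-0.86).

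Cytochrome P450 genes, whose products oxidise hormones, fatty acids and foreign compounds, moved in both directions. Of 74 tested, 10 were higher and 24 lower, where 16.3% of all genes were higher and 19.8% lower. Those that held were 3 on the higher and 16 on the lower side, where 1.55% and 3.1% of all genes held. Without CBS/CSE(1) replicate 1 there were 6 higher and 16 lower, and without CBS(5) replicate 2 there were 4 higher. Opposite changes stood inside 1 cluster on 2R, where *Cyp4p2*, *Cyp4p1* and *Cyp4p3* follow each other with 209 and 180 bases between them. *Cyp4p1* had 14.8, 12.7 and 10.4 CPM in CBS/CSE(1), against 141, 145 and 147 CPM in CBS(5) (log2 -3.51, SE 0.19, quasi-likelihood adjusted p = 1.34e-09). *Cyp4p2* went the other way, with 19.2, 18.3 and 20.9 CPM in CBS/CSE(1), against 2.02, 3.67 and 0.598 CPM in CBS(5) (log2 3.2, SE 0.41, quasi-likelihood adjusted p = 5.69e-05).

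The third gene of the cluster was lower by a smaller amount. *Cyp4p3* had 22.3, 20.1 and 21.4 CPM in CBS/CSE(1), against 49.3, 43.1 and 46.8 CPM in CBS(5) (log2 -1.12, SE 0.11, quasi-likelihood adjusted p = 2.79e-06). In females of the pair *Cyp4p1* was lower (-3.15) and *Cyp4p2* higher (6.68) as in males, while *Cyp4p3* was higher (1.41, quasi-likelihood adjusted p = 0.03), and the male effect minus the female effect was -2.70 for *Cyp4p3*. In libraries labelled CSE(8) against stock 58492 males *Cyp4p2* was higher (3.24) and *Cyp4p1* lower (-1.06). Reads of these similar neighbours may be shared between copies.

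*Cyp6a2*, a P450 known for its part in insecticide resistance, had 306, 251 and 366 CPM in CBS/CSE(1), against 53.6, 57.5 and 122 CPM in CBS(5), with no overlap (log2 1.99, SE 0.25, quasi-likelihood adjusted p = 4.69e-05). It was higher by similar amounts in females of the pair (2.52), in CBS/CSE(2) against CBS(8) (2.13) and in libraries labelled CSE(8) against stock 58492 (2.88), where the stock had 26.3 to 27.7 CPM. *Cyp28a5* had 108, 110 and 120 CPM in CBS/CSE(1), against 44.9, 45.1 and 56.4 CPM in CBS(5) (log2 1.21, SE 0.11, quasi-likelihood adjusted p = 1.61e-06). Both genes and *Cyp4p2* are the 3 P450 genes that held on the higher side.

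On the lower side the third CBS(5) library was often the highest. *Cyp6w1* had 170, 75.8 and 155 CPM in CBS/CSE(1), against 244, 380 and 638 CPM in CBS(5) (log2 -1.66, SE 0.33, quasi-likelihood adjusted p = 0.00237). *Cyp6a8* had 21.7, 11.4 and 24.6 CPM in CBS/CSE(1), against 29.0, 44.1 and 94.1 CPM in CBS(5) (log2 -1.54), and *Cyp4e3* 434, 258 and 633 CPM, against 1006, 863 and 1918 CPM (log2 -1.52). None of the 3 overlapped between the groups. Of 30 UDP-glycosyltransferases, which attach sugars to lipophilic compounds, 2 were higher and 6 lower (3 without CBS/CSE(1) replicate 1, 4 without its replicate 3 or CBS(5) replicate 3), where 19.8% of all genes were lower, and 4 lower held, among them *Ugt49B1* with 124, 171 and 140 CPM in CBS/CSE(1), against 277, 213 and 280 CPM in CBS(5) (log2 -0.82, SE 0.13, quasi-likelihood adjusted p = 0.000488).

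Most digestive proteases of the gut fell with all libraries. Of 26 trypsins and Jonah serine proteases, 21 were lower and 2 higher (median log2 -0.72), with the third CBS(5) library alone 8 were lower and 2 higher, and 8 held. Without CBS/CSE(1) replicate 1 there were 14 lower. Over all genes 19.8% were lower and 16.3% higher with all libraries, and 3.1% held lower. The levels of the protease list summed to 8061, 9213 and 9431 CPM in CBS/CSE(1), against 13300, 14040 and 12200 CPM in CBS(5), without overlap. *Jon25Biii* had 557, 686 and 633 CPM in CBS/CSE(1), against 1315, 1763 and 1221 CPM in CBS(5) (log2 -1.20, SE 0.19, quasi-likelihood adjusted p = 0.000486). *Jon99Cii* had 198, 226 and 215 CPM in CBS/CSE(1), against 488, 386 and 493 CPM in CBS(5) (log2 -1.10, SE 0.18, quasi-likelihood adjusted p = 0.000481).

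The trypsin *thetaTry* had 83.1, 81.9 and 88.9 CPM in CBS/CSE(1), against 184, 323 and 160 CPM in CBS(5) (log2 -1.39), and *Jon66Ci*, the largest fall that held on the list, had 0.557, 1.76 and 2.14 CPM, against 5.80, 5.4 and 6.65 CPM (log2 -1.99). The 2 members that rose were *Jon44E*, with 24.8, 27.2 and 24.7 CPM in CBS/CSE(1), against 12.9, 17.9 and 10.02 CPM in CBS(5) (log2 0.91), and *Jon65Aii* (log2 0.84). Stock 58492 males lay at 652 to 915 CPM of *Jon25Biii* and 228 to 243 CPM of *Jon99Cii*, nearer to CBS/CSE(1). In females of the pair 1 of 26 was higher and none lower, and CBS/CSE(2) against CBS(8) gave 1 lower and none higher. For *Jon25Biii* and *Jon99Cii* the difference from the second double deletion was itself past the threshold, at -1.17 and -1.39.

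Lysozymes, which fly guts secrete, gave 1 higher and 3 lower of 7, and 2 lower held. *LysC* had 35.7, 3.85 and 1.21 CPM in CBS/CSE(1), against 126, 244 and 101 CPM in CBS(5) (log2 -3.54, SE 0.71, quasi-likelihood adjusted p = 0.00249), with no overlap but a wide spread among the CBS/CSE(1) libraries. *LysE* had 60.3, 49.5 and 62.2 CPM in CBS/CSE(1), against 131, 148 and 126 CPM in CBS(5) (log2 -1.23), and *LysB* was lower too (log2 -1.08). *LysP*, the lysozyme of the salivary gland, rose to 107, 192 and 202 CPM in CBS/CSE(1), against 99.1, 93.3 and 76.6 CPM in CBS(5) (log2 0.90). Copies of the *LysC*, *LysE* and *LysB* kind are nearly identical, and how reads were split between them is uncertain. Of 13 amylases and maltases 2 were higher and 2 lower. For both lists, 16.3% of all genes were higher and 19.8% lower. The 2 lower genes of this last list were the amylases *Amy-d*, with 399, 495 and 526 CPM in CBS/CSE(1), against 878, 655 and 966 CPM in CBS(5) (log2 -0.81), and its near copy *Amy-p* (log2 -0.85), and both held.

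**Figure D5:**
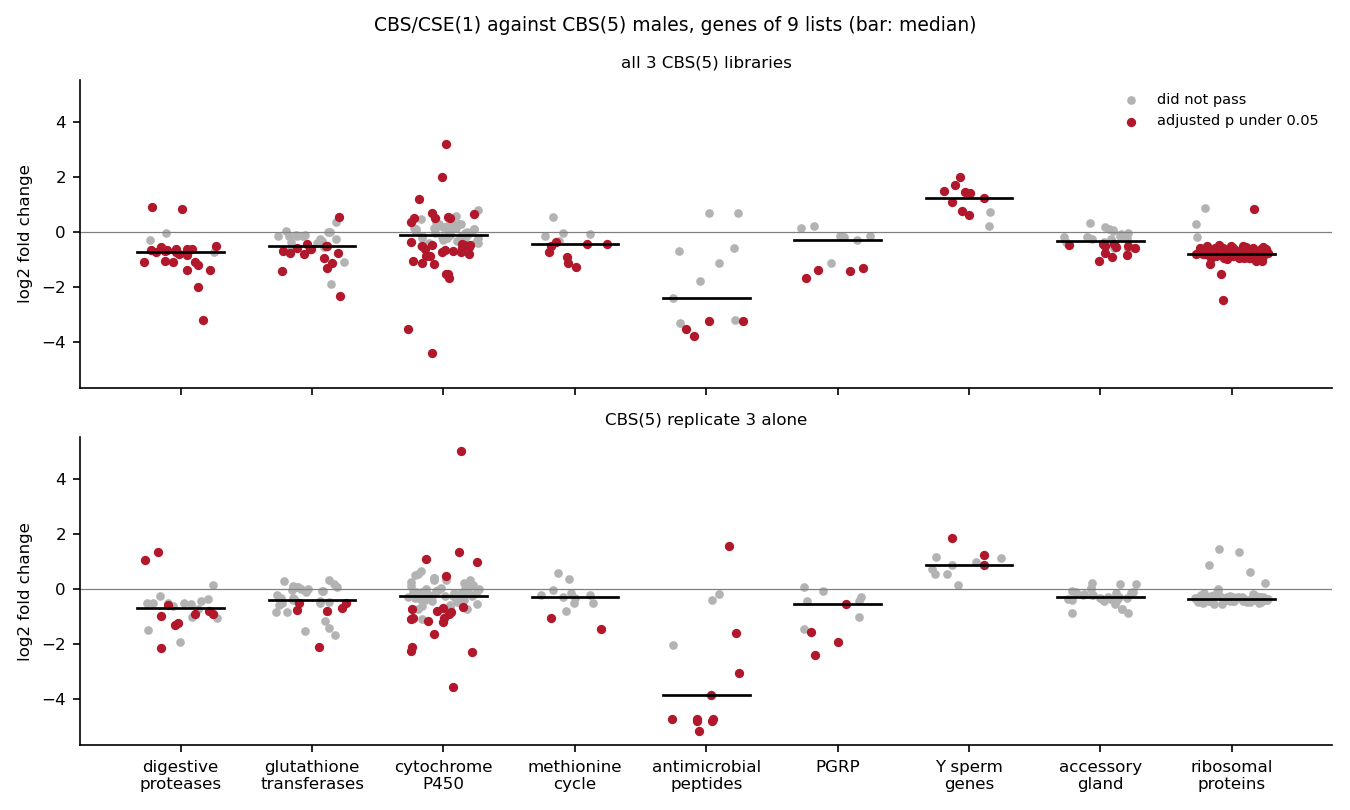
Log2 fold change of CBS/CSE(1) against CBS(5) males for the genes of 9 lists, with all 3 CBS(5) libraries (upper panel) and with CBS(5) replicate 3 alone (lower panel). Each point is a gene, red where the quasi-likelihood adjusted p is under 0.05, and the bar is the median: ribosomal proteins have 77 of 80 red points above and 0 below, while digestive proteases have 23 of 26 and 10 of 26.

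The level of antimicrobial peptides depended on 1 library. The antimicrobial peptides, which the fat body secretes on infection, summed to 230, 308 and 194 CPM in CBS/CSE(1), against 225, 236 and 1552 CPM in CBS(5). The third CBS(5) library alone was high, and the first and second overlapped with CBS/CSE(1). Of 13 genes tested 0 were higher and 4 lower with all libraries, while with the third library alone 16 were tested, 1 of them higher and 10 lower. Without that library 2 were lower and the median log2 was 0.14, against -2.41 with it. Without CBS/CSE(1) replicate 1 or 3, 2 were also lower. Without CBS(5) replicate 1 or 2, 7 and 8 were lower. Over all genes 16.3% were higher and 19.8% lower with all libraries. *AttC* had 13.5, 19.1 and 10.4 CPM in CBS/CSE(1), against 14.03, 10.01 and 377 CPM in CBS(5), and its log2 of -3.22 became 0.21 without the third library.

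*DptB*, a diptericin, had the same shape, with 3.62, 13.4 and 5.70 CPM in CBS/CSE(1), against 7.01, 6.41 and 201 CPM in CBS(5). Its log2 was -3.23 with all libraries. The attacins *AttA* and *AttB*, 1007 bases apart on 2R, differed in that all 3 CBS(5) libraries lay above all 3 CBS/CSE(1) libraries. *AttA* had 1.88, 2.42 and 1.41 CPM in CBS/CSE(1), against 5.46, 5.26 and 68.0 CPM in CBS(5), and *AttB* 3.48, 3.53 and 3.82 CPM, against 11.1, 12.2 and 101 CPM (log2 -3.51, SE 0.81, quasi-likelihood adjusted p = 0.00494). *AttA* and *AttB* are near copies of each other, so their reads may be shared. The analysis with the third CBS(5) library alone rests, for these genes, on the library in which they were highest.

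Of 11 peptidoglycan recognition proteins, which sense or clear bacterial cell wall, 4 were lower and 0 higher, and 3 held, where 19.8% of all genes were lower and 3.1% held lower. *PGRP-SC2*, an amidase of the gut, had 35.3, 55.3 and 44.6 CPM in CBS/CSE(1), against 125, 97.0 and 132 CPM in CBS(5) (log2 -1.39, SE 0.24, quasi-likelihood adjusted p = 0.000748). The 3 CBS(5) libraries were close to each other here. *PGRP-SB1* had 7.87, 11.3 and 8.17 CPM in CBS/CSE(1), against 20.9, 19.4 and 48.0 CPM in CBS(5) (log2 -1.69), and *PGRP-SD* 6.83, 12.5 and 7.37 CPM, against 18.8, 19.4 and 33.6 CPM (log2 -1.42). Of 11 bomanin and daisho peptides, effectors of the Toll pathway, 4 were lower and 0 higher, and *BomT1*, *Dso1* and *Dso2* held, but 0 were lower without CBS/CSE(1) replicate 2, 1 without its replicate 1 and 2 without CBS(5) replicate 3. *BomT1* lies within 500 kb of *Cth*. *Dso1* had 230, 251 and 292 CPM in CBS/CSE(1), against 526, 281 and 696 CPM in CBS(5), with overlap (log2 -0.96, SE 0.28, quasi-likelihood adjusted p = 0.0155), and was lower in females of the pair (-1.56) and in the second double deletion (-1.44).

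Stress peptides of the Turandot family gave 2 higher of 5 and 0 lower, and 0 held, where 16.3% of all genes were higher and 19.8% lower. *TotM* had 16.9, 36.9 and 40.6 CPM in CBS/CSE(1), against 7.28, 9.43 and 4.71 CPM in CBS(5) (log2 2.14, SE 0.50, quasi-likelihood adjusted p = 0.00536), and *TotX* 84.9, 104 and 82.0 CPM, against 43.2, 15.6 and 35.9 CPM (log2 1.52). With the third CBS(5) library alone neither passed (quasi-likelihood adjusted p = 0.0517 and 0.0999). In CBS/CSE(2) against CBS(8) 4 of the 5 were higher. Of 13 heat shock proteins 0 were higher and 3 lower, of 11 regulators of amino acid stress and the unfolded protein response 0 and 2, and 0 genes of either list held. The lower counts of both lists are near the 19.8% lower over all genes.

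The Malpighian tubule, the insect kidney, gave 6 higher and 2 lower of 10 genes, of which 2 each way held. Over all genes 16.3% were higher and 19.8% lower, and 1.55% held higher and 3.1% lower. *Irk3*, a potassium channel, had 133, 133 and 162 CPM in CBS/CSE(1), against 56.9, 50.8 and 65.6 CPM in CBS(5) (log2 1.3, SE 0.16, quasi-likelihood adjusted p = 2.64e-05). *Oatp58Db*, an organic anion transporter, had 27.4, 21.4 and 19.6 CPM in CBS/CSE(1), against 9.44, 7.99 and 8.82 CPM in CBS(5) (log2 1.38, SE 0.22, quasi-likelihood adjusted p = 0.000452). Neither gene overlapped between the groups. *Uro*, the urate oxidase, fell to 270, 196 and 152 CPM in CBS/CSE(1), against 370, 204 and 482 CPM in CBS(5), with overlap (log2 -0.77, SE 0.25, quasi-likelihood adjusted p = 0.0249), and *Cyp4e3* is the other member that was lower and held.

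Of 17 genes of juvenile hormone and insulin signalling 9 were lower and 1 higher, and 4 held, where 19.8% of all genes were lower, 16.3% higher and 3.1% held lower. Without any 1 of the CBS/CSE(1) replicates 6 were lower. The 3 juvenile hormone epoxide hydrolases, which inactivate the hormone, were among them. *Jheh1* had 114.9, 102 and 138 CPM in CBS/CSE(1), against 169, 166 and 266 CPM in CBS(5) (log2 -0.76, SE 0.15, quasi-likelihood adjusted p = 0.0017), *Jheh3* had a log2 of -0.73 and *Jheh2* of -0.39. *Akh*, the adipokinetic hormone, which mobilises fat and sugar, had 5.71, 7.25 and 6.57 CPM in CBS/CSE(1), against 10.1, 9.0 and 10.99 CPM in CBS(5) (log2 -0.62, SE 0.14, quasi-likelihood adjusted p = 0.00496). None of the 4 lay past the threshold in females or in the second double deletion.

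*Lsp1beta*, a subunit of a larval storage protein, had 163, 55.0 and 101 CPM in CBS/CSE(1), against 21.9, 18.3 and 18.3 CPM in CBS(5) (log2 2.45, SE 0.32, quasi-likelihood adjusted p = 6.44e-05), and was higher in the second double deletion as well (3.10). *Idgf1*, an imaginal disc growth factor of the chitinase-like family, had 87.5, 96.5 and 89.5 CPM in CBS/CSE(1), against 159, 163 and 145 CPM in CBS(5) (log2 -0.77, SE 0.10, quasi-likelihood adjusted p = 7.48e-05), and of 6 such factors 4 were lower (2 without CBS/CSE(1) replicate 1), with *Idgf1* and *Idgf6* held. *Tsf1*, the iron carrier transferrin, had 1517, 1666 and 1942 CPM in CBS/CSE(1), against 2567, 2738 and 3411 CPM in CBS(5) (log2 -0.77). It was the 1 of 8 iron genes that was lower with all libraries (4 were without CBS(5) replicate 2). Over all genes 19.8% were lower with all libraries.

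*MtnC*, a metallothionein, was the 1 of 6 of its family that differed, with 28.2, 15.8 and 22.6 CPM in CBS/CSE(1), against 55.9, 45.9 and 53.5 CPM in CBS(5) (log2 -1.22, SE 0.24, quasi-likelihood adjusted p = 0.00186). Of 36 odorant-binding proteins and receptors 2 were higher and 9 lower, among them *Obp56i* with 3.41, 3.40 and 2.88 CPM in CBS/CSE(1), against 8.97, 8.71 and 9.72 CPM in CBS(5) (log2 -1.5). Glycolysis and the pentose phosphate pathway (0 higher and 7 lower of 16, but 0 lower without CBS/CSE(1) replicate 1 and 1 without its replicate 2), lipid synthesis and lipases (1 and 3 of 17), phototransduction (2 and 2 of 17), flight muscle (1 and 2 of 23), the circadian clock (1 and 3 of 11), pigment genes (1 and 1 of 5) and tyrosine breakdown (1 and 1 of 8) are given by their counts alone, for comparison with the 16.3% higher and 19.8% lower over all genes, and sex determination and dosage compensation gave 0 higher and 4 lower of 14. Of the 885 tested genes of the 43 lists, 11 held higher and 66 held lower.

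Finally, the comparison was set beside 3 others that share none of its libraries. The females are of the same strains, and both double deletions took their *Cth* deletion from the same strain. In females 392 of 10548 genes differed between the same strains (3.72%). Of the 194 genes held higher in males, 86 were tested in females, where 37 were called higher and 3 lower, and of the 383 held lower 332 were tested, 54 called lower and 1 higher. In CBS/CSE(2) against CBS(8) males 1186 genes differed (9.1%), with 91 of the 194 higher and 1 lower, and 77 of the 383 lower and 17 higher. In libraries labelled CSE(8) against stock 58492 males 483 genes differed (3.71%), with 36 of the 194 higher and 4 lower, and 64 of the 383 lower and 10 higher. As shares of the other lists, 23.9% of the genes called higher in females outside the female-biased class held higher in males, and 44.3% of those called lower held lower. Those shares were 14.7% and 32.2% for CBS/CSE(2) against CBS(8) and 17.6% and 25.5% for libraries labelled CSE(8) against stock 58492.

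The differences themselves were tested. The effect in males differed from that in females in 1705 of 13535 genes (12.6%), with 0.739% higher and 11.9% lower in males, and in 76 with the third CBS(5) library alone. It was 290 without CBS(5) replicate 2, 3135 without CBS(5) replicate 3, and 617 to 985 without any 1 of the other 4 libraries. It differed from the effect in CBS/CSE(2) against CBS(8) in 455 genes (3.49%), 0.69% higher and 2.8% lower, or 279 with the third library alone, 1816 without CBS(5) replicate 3 and 250 to 291 without any 1 of CBS/CSE(1) replicates 1 to 3 or CBS(5) replicate 1. It differed from the effect in libraries labelled CSE(8) against stock 58492 in 4825 (37%), 16.9% higher and 20.1% lower, or 1182 with the third library alone and 2846 without CBS/CSE(1) replicate 1. Male libraries labelled CSE(8) had a female share of 10.1 to 18.0% and stock 58492 males of 4.40 to 9.40%. For *Cth* the log2 difference was -5.04 in CBS/CSE(1) against CBS(5) males and -1.59 in libraries labelled CSE(8) against stock 58492 males. The genes that held in males and were called the same way both in females and in the second double deletion numbered 23 higher and 23 lower, and 6 and 7 of these were so in libraries labelled CSE(8) as well.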

How the data were processed

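Members, gene lists and tests were chosen with earlier results of these data known. Per the labels, libraries were made with a directional kit from poly(A) RNA and handled with FastQC, Trimmomatic 0.38, STAR 2.5.0a and featureCounts 1.5.0-p1. The annotation and strand setting are not given in the sources used here. The authors deposited raw counts of reads per gene for each library. Of 17559 genes, 17253 were matched to symbols and dm6 positions in Ensembl release 115 annotation.

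The male comparison was made in edgeR 4.0.16, run under R 4.3.3 beside limma 3.58.1, in 1 fit of 21 male libraries of 7 genotypes: filterByExpr (minimum count 10, minimum total 15), TMM scaling, quasi-likelihood F-test, and Benjamini-Hochberg adjustment over all genes tested, called at an adjusted p under 0.05. Female pairs were fitted apart, and differences between sexes over 42 libraries. CPM values are TMM-scaled, and SE values come from the fold change and F statistic. Folds against groups with at most 3 counts in every library were bounded at 3 counts. The procedure was tested on simulated data.

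Genes are named by a rule: the 3 genes of sulphide production, up to 4 called genes with the largest change per list (at least 5 CPM, no overlap) and members needed to account for a count, the 12 largest changes each way outside the female-biased class that were also called after subtraction, the largest falls of female-biased genes, and up to 6 each way shared with females and CBS/CSE(2). *NimC1* is outside the rule, and further members of a list were named to account for its counts. Where the rule asked for no overlap, the lack of overlap of a named gene is no separate evidence. Alternatives were DESeq2 1.42.0, upper-quartile factors, TMM from genes similar in both sexes, other filters, only the libraries compared, replicate numbers as a block, subtraction of female RNA, the female share as a covariate, a fold minimum, and leaving out single libraries. The backcrossed strain and thoraxes were not used here.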

Additional observations from a re-analysis of the deposited data

Results flagged for a closer look

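The effect of CBS/CSE(1) against CBS(5) differed between males and females in 1705 genes by edgeR's quasi-likelihood test of the difference, and that count was 2 when only the libraries compared entered the fit. Among the genes named above, the log2 effect in males was below that in females, given as the difference, for *Ahcy* (-1.20), *Akh* (-0.77), *AttB* (-3.42), *CG10621* (-1.68), *Cp16* (-5.16), *Cth* (-1.40), *Cyp4p2* (-3.59), *Cyp4p3* (-2.70), *GstE6* (-0.55), *Idgf1* (-0.96), *Idgf6* (-0.59), *Jon65Aii* (-1.43), *LysB* (-2.10), *LysE* (-1.65), *RpL41* (-2.14), *RpS7* (-1.50), *Sam-S* (-0.87), *Smyd4-3* (-1.18), *Yp1* (-5.21), *Yp2* (-5.67), *Yp3* (-5.40), *osk* (-4.97) and *thetaTry* (-1.40). It was above that in females for *CG32373* (2.15) and *phu* (2.18). The CBS(5) males held 11.8%, 36.5% and 1.72% female RNA, and the part of that in these differences was not tested.

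The effect differed from that of CBS/CSE(2) against CBS(8) males in 455 genes. The difference of log2 effects was negative for *Acp76A* (-1.79), *CR33013* (-4.67), *Cyp4p3* (-0.87), *Cyp6a8* (-2.31), *Dso2* (-1.14), *Gnmt* (-1.98), *GstE6* (-0.61), *GstE7* (-1.16), *GstE9* (-0.86), *Idgf6* (-0.49), *Jheh1* (-1.09), *Jon25Biii* (-1.17), *Jon99Cii* (-1.39), *LysE* (-1.54), *PGRP-SC2* (-1.88), *PGRP-SD* (-1.81), *Smyd4-3* (-4.63), *Ugt49B1* (-0.84) and *lncRNA:CR45128* (-5.13). It was positive for *Acsx1L* (4.21), *CG42782* (3.25), *CG43402* (1.28), *Cyp28a5* (0.59), *Cyp4p2* (2.98), *Jon65Aii* (1.16), *lncRNA:CR42844* (2.35), *lncRNA:CR44344* (4.93), *lncRNA:CR44977* (2.35) and *phu* (3.14).

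The effect differed from that of libraries labelled CSE(8) against stock 58492 males in 4825 genes, in a comparison whose libraries held 10.1 to 18.0% female RNA in libraries labelled CSE(8) and 4.40 to 9.40% in stock 58492.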

How the results depend on the processing

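The 4709 genes that differed between CBS/CSE(1) and CBS(5) males became 568 with only the libraries compared, 3101 with female RNA subtracted, 1689 with the female share as a covariate, 1375 at an absolute log2 difference of at least 1, and 1007 with the third CBS(5) library alone, and lay between 2039 and 6535 when single libraries were left out. Of the called genes 45.2% were higher, against 57.6% with only the libraries compared and 33.3% after subtraction. Outside the female-biased class the 3316 genes became 537 with only the libraries compared, 1479 with the covariate, 932 with the fold minimum and 945 with the third library alone, and lay between 1614 and 4320 when single libraries were left out.

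The 1705 genes with different effects in the sexes became 1007 with TMM from genes similar in both sexes, 809 with at least 10 counts in every library, 2 with only the libraries compared, 460 with the covariate, 1092 with the fold minimum and 76 with the third library alone, and lay between 290 and 3135 without single libraries. The 455 genes that differed from the second double deletion became 729 with DESeq2, 132 with only the libraries compared, 1148 with the covariate, 290 with the fold minimum and 279 with the third library alone, and lay between 250 and 1816 without single libraries. The 4825 genes that differed from libraries labelled CSE(8) became 1018 with the covariate, 2541 with the fold minimum and 1182 with the third library alone, and lay between 2846 and 6502 without single libraries. The causes were not tested.

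The *Cth* value stayed between -5.10 and -4.94 without single libraries. *Cbs*, which did not pass, was at 0.30 after subtraction and 0.071 with the covariate, and between -0.63 and 0.42 without single libraries. CG12279 was at 0.083 with the third library alone. Without single libraries *AttC* lay between -3.76 and 0.21 and *DptB* between -3.88 and 0.14. Of 95 named genes called as reported, 54 passed with only the libraries compared, 83 with the covariate, 76 with the third library alone and 93 with DESeq2. With the replicate number as a block the counts were 4386, 3139, 1718, 365 and 4533, and *Cth* was at -5.04. Samples with the same number did not deviate together (residual correlations 0.164, -0.169 and -0.11), so the numbers were not taken to pair them.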
